A study of Mus musculus with 30 samples.

Results

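Stromal RNA from tumour-bearing mouse bone was compared here between libraries with high and with low levels of a marker transcript of the olfactory mucosa. The marker was Omp, the gene of olfactory marker protein, which marks mature olfactory sensory neurons. Of the 30 libraries of the series, 13 came from bone exposed to circulating tumour cells (CTCs). An exposed bone library was called Omp-high at an Omp level of at least 100 CPM (the usual depth-scaled count, relative to the column total) and Omp-low below it. This put 3 libraries in the Omp-high class and 10 in the Omp-low class. The lowest Omp-high library stood at 216 CPM of Omp and the highest Omp-low library at 41.3 CPM. Because the classes were chosen on a measured value of the same libraries, differences between them are given as descriptions without a test, and Omp is left out of the findings.

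Exposed libraries came from female NSG mice, an immunodeficient strain, that were 6 to 8 weeks old at inoculation and carried subcutaneous slow release estrogen pellets. They received 100000 cells of a patient-derived breast CTC line labelled with GFP and luciferase in the left cardiac ventricle. Bone held 2 libraries of line Brx07, 4 of Brx50 and 7 of Brx68, against 3 controls from tumour-free mice. Dissociated tissue was sorted for cells lacking GFP, called stromal cells in the labels, and each library was made from the RNA of 50000 of them. Whether the control mice carried pellets was not stated. The absence of GFP was the 1 sorting criterion named, so the sorted cells can be of any mouse cell type in the dissociated piece. The Omp-high libraries were Brx07 replicate 2 and Brx50 replicates 2 and 3. The titles name a skull site for Brx07 replicate 2 and a leg site for Brx07 replicate 1, which was Omp-low; the skeletal site of the other 11 exposed bone libraries and of the controls was not stated in the labels. Total counts ran from 8879157 to 10313036 in the Omp-high class, from 7058861 to 15646947 in the Omp-low class and from 10625392 to 12989953 in the controls. Genes with at least 1 count numbered 23111 to 25688, 14769 to 24018 and 22875 to 22917 in the same order. In such bulk libraries, fewer cells of a type and less RNA per cell cannot be told apart.

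The olfactory mucosa lines the upper nasal cavity, inside the skull. Its sensory neurons each use 1 of a very large family of odorant receptors. An odorant-bound receptor activates a G protein that contains the Gnal product, adenylyl cyclase 3 (Adcy3) makes cyclic AMP, a channel built from Cnga2, Cnga4 and Cngb1 opens, and a chloride channel (Ano2) adds to the current. Sustentacular cells support and detoxify the epithelium, and Bowman's and other nasal glands secrete the mucus with its odorant-binding proteins.

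Transcription factors of the Ebf family, named for their part in olfactory and B cells, bind a palindrome with the core letters CCCNNGGG, preceded by T and followed by A in its full form. The photoreceptor factor Crx binds TAATCC. The core, the full palindrome and TAATCC were sought on both strands in the 250 bases before the transcription start in RefSeq promoters (GRCm38.p6), as the members below moved together. The full palindrome was present in 0.779% of 32851 promoters and in 0 of the 17 mature olfactory neuron genes that had a promoter entry. The core, which the full palindrome contains, was present in 11.8% of all promoters and in 8 of the 26 promoters of these 17 genes, each of a different gene, against 2 of 10 photoreceptor promoters. TAATCC was present in 6.25% of all promoters, in 3 of 10 photoreceptor promoters and in 3 of the 26 olfactory promoters. A match is a description of letters, not of binding. The stretches around the match are shown for 4 genes of the olfactory current or apical membrane and for the rod arrestin gene Sag, whose transcripts are described below, each 5′ to 3′ on the gene's strand with the motif in capitals.
Cnga2: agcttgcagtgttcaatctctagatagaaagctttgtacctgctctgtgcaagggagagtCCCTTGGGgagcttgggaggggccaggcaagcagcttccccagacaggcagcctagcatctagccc
Cngb1: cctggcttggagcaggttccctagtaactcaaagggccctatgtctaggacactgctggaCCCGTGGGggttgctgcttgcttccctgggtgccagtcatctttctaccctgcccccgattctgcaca
Ano2: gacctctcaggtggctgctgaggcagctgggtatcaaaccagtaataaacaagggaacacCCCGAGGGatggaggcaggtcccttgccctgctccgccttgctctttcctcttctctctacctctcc
Umodl1: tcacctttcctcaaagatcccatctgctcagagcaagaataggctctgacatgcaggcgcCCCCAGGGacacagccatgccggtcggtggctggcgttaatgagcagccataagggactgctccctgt
Sag: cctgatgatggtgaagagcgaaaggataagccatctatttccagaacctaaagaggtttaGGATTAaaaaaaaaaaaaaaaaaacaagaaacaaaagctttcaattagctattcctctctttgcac
The stretches lie at chrX:71991723-71991848 (plus strand) for Cnga2, chr8:95306647-95306774 (minus strand) for Cngb1, chr6:125711061-125711187 (plus strand) for Ano2, chr17:30954467-30954594 (plus strand) for Umodl1 and chr1:87803533-87803658 (plus strand) for Sag. The first motif base lies 66 bases before the start in Cnga2, 129 in Cngb1, 67 in Ano2, 156 in Umodl1 and 87 in Sag. The Ano2 and Umodl1 starts used here are RefSeq starts inside the genes, which begin at chr6:125690419 and chr17:30954640 in the GENCODE annotation. None of these stretches overlapped an exon of the GENCODE M21 annotation.

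Genes of mature olfactory neurons other than Omp were higher in the Omp-high libraries. Of 21 listed genes, 18 had all 3 Omp-high values above all 10 Omp-low values, and 0 had all below. Over the 18062 genes that passed the low count filter, 3.79% were higher in this sense and 0.083% lower. The filter used the Omp classes, so a gene could pass by its level in the 3 Omp-high libraries alone. The higher share came from 684 genes, which became 1366 without Brx50 replicate 2. Over all 43346 gene IDs, the shares were 2.41% and 0.0346%. The list score, the mean over members of log2(CPM + 1), was 6.25 ± 1.00 (SD, n = 3) against 2.08 ± 0.64 (n = 10), and 1.88 to 1.91 in the 3 controls. The median difference of the 21 genes between class means of log2(CPM + 1) was 4.54, while that of all genes passing the filter was 0.16.

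The channel gene Cnga2 (chrX:71991849-72010218) read 226 CPM in Brx07 replicate 2, 60.3 in Brx50 replicate 2 and 59.4 in Brx50 replicate 3. In the Omp-low class it ran from 0 through a median of 0 to 11.5 CPM, the last in Brx68 replicate 3, and it was at most 0.0770 CPM in the controls. The classes did not overlap, and 6 of the 10 Omp-low libraries held no Cnga2 count. A count of 0 allows up to 3 counts, or 0.425 CPM at the smallest total. Its partners were separated too: Cnga4 read 75.0, 20.9 and 16.5 CPM against at most 3.77, and Cngb1 read 228, 72.1 and 103 CPM against at most 14.0.

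The upstream steps of the cascade showed the same separation from different starting levels. Gnal read 768, 217 and 160 CPM, against a median of 6.14 and a maximum of 46.6 in the Omp-low class. Adcy3, which many tissues use, read 454, 96.0 and 108 CPM against 10.5 to 54.2. Ric8b, an exchange factor for the olfactory G protein, read 342, 95.2 and 74.0 CPM against 19.0 to 39.0. Gnb1, a G protein beta subunit found in most cells and the most abundant member, read 981, 523 and 631 CPM against 216 to 402, the smallest difference among the separated members at 1.10 on the log2(CPM + 1) scale.

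Receptor transport and membrane genes of these neurons were near 0 in most Omp-low libraries. Umodl1, an extracellular olfactory neuron protein, read 534, 154 and 166 CPM against a median of 0.0651 and a maximum of 22.1. Fstl5 (chr3:76074270-76710019), a secreted follistatin-like protein, had the largest difference of the list at 7.44 on the log2(CPM + 1) scale. It read 455, 168 and 164 CPM, and 0 in 9 of the 10 Omp-low libraries, with 18.7 CPM in Brx68 replicate 3. Stoml3, a stomatin-like protein of olfactory cilia, read 420, 122 and 89.8 CPM against at most 28.1, and Rtp1, which carries odorant receptors to the cell surface, read 164, 51.7 and 58.1 CPM against at most 6.97. Separation did not hold for Slc24a4, Kirrel3 and Reep6, whose Omp-low maxima of 28.2, 21.9 and 15.9 CPM exceeded at least 1 Omp-high value.

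**Figure D1:**
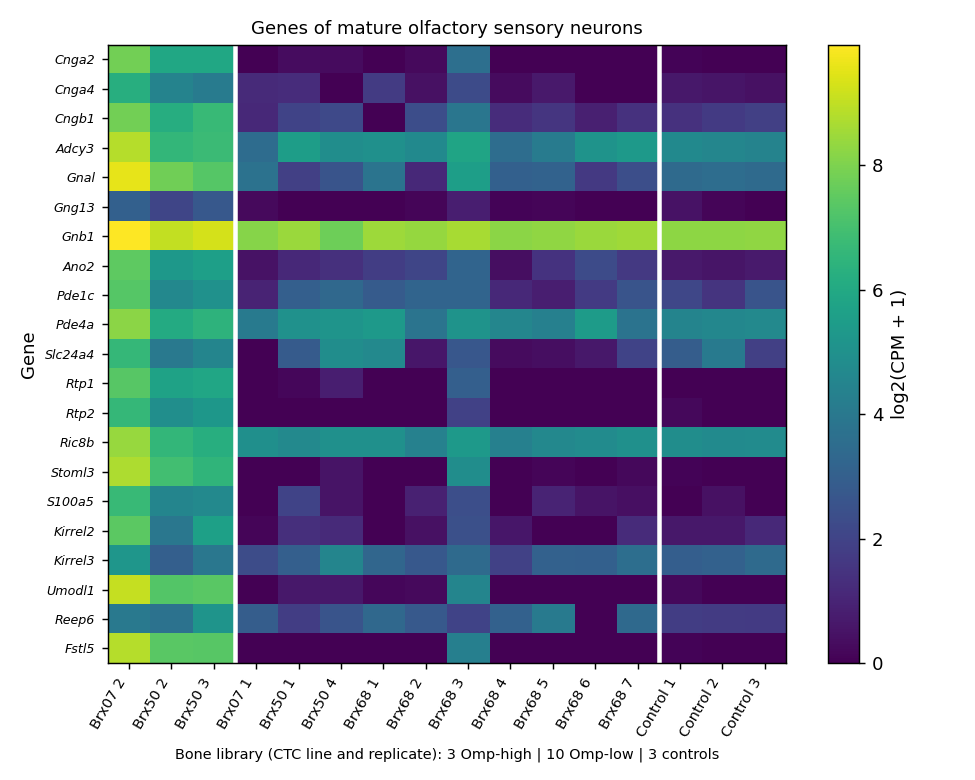
Level of the 21 mature olfactory neuron genes (rows) in the 16 bone libraries (columns), as log2(CPM + 1) on a colour scale; white lines part the 3 Omp-high, 10 Omp-low and 3 control libraries. The Omp-high columns are the brightest for 18 rows, and Brx68 replicate 3, with Cnga2 at 11.5 CPM, is intermediate between them and the other Omp-low columns.

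Brx68 replicate 3 stood apart within the Omp-low class. It held the highest Omp-low value of 16 of the 21 mature olfactory neuron genes, and its list score was 3.76, with a class median of 1.91. With this library left out, the score difference of the list between the classes was 4.36 rather than 4.17.

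Genes of immature olfactory neurons and their progenitors were also higher, by less. Of 17 members, 11 were higher and 0 lower without overlap, and the score was 5.20 ± 0.41 (SD, n = 3) against 2.99 ± 0.59 (n = 10), with 2.67 to 2.81 in controls. Sox11, a factor of young neurons, read 101, 96.0 and 138 CPM against 1.20 to 25.6. Gap43, a growth cone protein, read 27.3, 25.3 and 41.6 CPM against 0 to 7.09, and Tubb3, a neuronal tubulin, 81.5, 35.6 and 71.8 CPM against 0.901 to 14.96. Lhx2, a homeobox factor needed for olfactory neuron development, had a difference of 3.57 but overlapped, because Brx68 replicate 7 read 51.4 CPM and Brx50 replicate 2 read 37.5. The cofactor gene Ldb1, the cytoskeletal gene Dpysl3 and Ebf1, which stromal and B cells also express, overlapped as well, with class means that differed by at most 0.31 on the log2(CPM + 1) scale.

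Odorant receptor transcripts were spread over many genes in the Omp-high class. Of 1020 receptor genes in the table, 722 had at least 1 count in Brx07 replicate 2, 421 in Brx50 replicate 2 and 328 in Brx50 replicate 3. Omp-low libraries had 2 to 127, the highest in Brx68 replicate 3 and the next at 44, and controls had 34 or 35. At the smallest library total, the expected numbers were 667, 388 and 287 against 2 to 89.4, and the classes again did not overlap. Values did not overlap, with higher Omp-high values, for 149 of the 1020 genes and with lower values for 0. Over all 43346 gene IDs, without the filter, 2.41% were higher and 0.0346% lower in this sense. Only 14 receptor genes passed the low count filter.

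The summed receptor level was 516, 174 and 134 CPM in the Omp-high class and 9.81 to 69.4 CPM in the Omp-low class. Receptors detected in all 3 Omp-high libraries numbered 191, and 607 were detected in at least 1 Omp-high library and at 0 in all 10 Omp-low libraries. The shares of all genes with these detection patterns are not given, so the 2 counts are descriptions of the family alone. At 10 counts or more, 160, 22 and 22 receptors were detected against 2 to 11, so most receptors rested on few counts each. Class I receptors, the smaller of the main groups, held 12.7%, 6.26% and 10.1% of the summed receptor level in the Omp-high libraries, with 120 of the 1020 genes.

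The leading receptor differed between the classes. Olfr536 (chr7:140500849-140507396) led in all 3 Omp-high libraries with 33.0, 14.9 and 11.9 CPM, which was 6.39% to 8.93% of their receptor level. It was detected in 2 of 10 Omp-low libraries, at most at 4.41 CPM. Olfr78, a receptor that is also expressed in vascular and chemosensory tissue outside the nose, led in 9 Omp-low libraries, and Olfr558 led in Brx68 replicate 7. The leading receptor of an Omp-low library held 18.4% to 75.8% of its receptor level. Olfr78 read 11.5, 2.14 and 5.53 CPM in the Omp-high class and 1.80 to 50.1 CPM in the Omp-low class, so its values overlapped. Of the other receptors that were most abundant over the 13 libraries, Olfr513 reached 0.978 CPM in the Omp-high class against at most 6.09, and Olfr222 reached 3.15 CPM against at most 2.55.

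**Figure D2:**
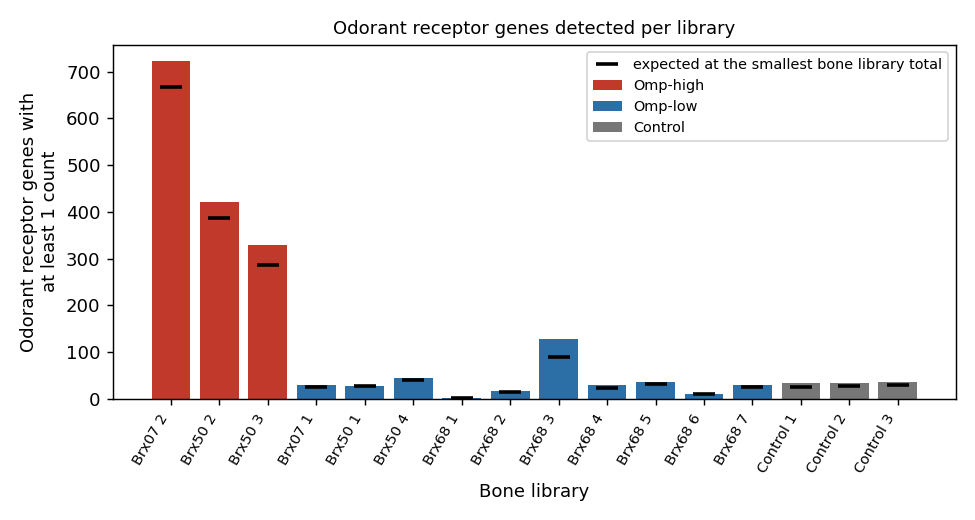
Number of odorant receptor genes with at least 1 count (bars) in each bone library, coloured by class, with the number expected at the smallest library total (black dashes). The 3 Omp-high libraries hold 328 to 722 receptors, Brx68 replicate 3 holds 127, and the other Omp-low libraries hold at most 44.

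The vomeronasal organ is a separate chemosensory organ of the nose. None of 8 listed vomeronasal neuron genes separated the classes, beside 3.79% of all filtered genes higher, so a count of 0 is near that share. Its channel gene Trpc2 had 0 counts in every bone library, as did Cldn5 and Hspa1a, which endothelial and stressed cells express. Since the annotation and strand setting of the counting are not stated, nothing is read from these 0 values. Of 292 vomeronasal receptor genes, 40, 7 and 62 were detected in the Omp-high class against 0 to 11. Brx50 replicate 2 thus lay within the Omp-low range for this family. Of the 292 genes, 1 separated the classes, beside 2.41% of all gene IDs higher.

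Supporting cells and glands of the nose followed the neurons. Of 13 sustentacular genes, 6 were higher and 0 lower without overlap, with a score of 4.21 ± 1.32 (SD, n = 3) against 1.20 ± 0.64 (n = 10). Cyp2g1, an olfactory-specific cytochrome P450, read 105, 15.9 and 97.5 CPM against at most 6.58, and Ugt2a2, a glucuronosyltransferase of the olfactory epithelium, 330, 18.1 and 147 CPM against at most 11.1. Cbr2, a carbonyl reductase and the most abundant member, read 486, 23.8 and 217 CPM but reached 72.2 CPM in the Omp-low class.

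Of 20 nasal gland genes, 12 were higher and 0 lower without overlap. The score was 6.91 ± 2.38 (SD, n = 3) against 1.25 ± 0.88 (n = 10), the largest list difference at 5.66 on the log2(CPM + 1) scale. Bpifb9b (chr2:154307227-154320646), a secreted BPI-fold protein, read 6841, 1117 and 2370 CPM. It had a median of 0 and a maximum of 73.0 CPM in the Omp-low class. Its neighbour and near copy Bpifb9a read 2161, 299 and 614 CPM against at most 13.6, and reads of such copies can be split uncertainly.

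Odorant-binding proteins carry odorants through nasal mucus. Obp1a (chrX:78085505-78091374) read 1885, 75.8 and 803 CPM and at most 0.130 CPM in the Omp-low class. Obp1b read 619, 16.9 and 289 CPM against at most 0.130. Obp2a read 1305 and 329 CPM in Brx07 replicate 2 and Brx50 replicate 3, but 0.338 CPM in Brx50 replicate 2, next to an Omp-low maximum of 0.303, so its separation rests on a few counts. The mucin Muc5b, the most abundant member, overlapped between the classes. It read 10066, 1667 and 5630 CPM against 2.20 to 20506, and most Omp-low libraries held it without Obp1a.

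Of 10 genes of microvillar and tuft cells, 3 were higher without overlap: Ascl3, Cftr and Foxi1, which mark ion-transporting epithelial cells. Cftr, a chloride channel, read 22.6, 5.41 and 9.31 CPM against at most 5.03. The ciliated cell list had 5 of 12 members higher, among them Rfx3, a regulator of cilium genes, at 134, 59.6 and 53.5 CPM against at most 33.6, but its scores overlapped. Squamous epithelium had 0 of 14 genes separated, and ensheathing and Schwann glia 0 of 10, near the 3.79% higher over all filtered genes.

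Photoreceptor genes, listed for cells of the retina of the eye, separated the same libraries. Of 14 members, 12 were higher and 0 lower without overlap, with a score of 4.34 ± 0.91 (SD, n = 3) against 0.81 ± 0.36 (n = 10) and 0.72 to 0.85 in controls. Brx68 replicate 3, intermediate for olfactory genes, did not stand apart for this list.

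Genes of the rod light response and outer segment had the same pattern. Sag, the rod arrestin whose upstream stretch is printed above, read 60.9, 61.4 and 155 CPM against at most 2.42. Prph2, a structural protein of the outer segment disc, read 20.8, 36.5 and 126 CPM against at most 1.18, and Gnat1, the rod transducin, 33.2, 77.8 and 213 CPM against at most 10.8. The rod factor Nrl read 6.16, 14.8 and 40.2 CPM against at most 0.3004. The cone opsins Opn1sw and Opn1mw overlapped. They read 4.99, 4.17 and 10.7 CPM against at most 15.02, and 0.685, 0.450 and 2.23 CPM against at most 1.64.

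Interferon response genes were higher in the same 3 libraries. Of 14 members, 10 were higher and 0 lower without overlap, with a score of 6.65 ± 0.48 (SD, n = 3) against 4.61 ± 0.48 (n = 10) and 4.77 to 5.02 in controls. Ifit3 (chr19:34583531-34588731), an interferon-induced antiviral protein, read 282, 177 and 125 CPM against 7.71 to 37.7, with a median of 14.8. Mx1, an antiviral GTPase, read 104, 24.4 and 51.2 CPM against at most 11.8, and Irf7, a regulator of interferon genes, 335, 209 and 232 CPM against 36.4 to 121. Ifit1 read 278, 118 and 120 CPM against at most 112, and Ifi44 121, 40.3 and 37.9 CPM against at most 37.3, so their separation was narrow. Isg15, Oas2, Rsad2 and Bst2 overlapped. Rsad2 reached 345 CPM in Brx68 replicate 5, above all 3 Omp-high libraries. The neuron, gland and photoreceptor genes were high in the same 3 libraries, although the order among the 3 differed between lists, and their part in the interferon values was not tested.

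**Figure D3:**
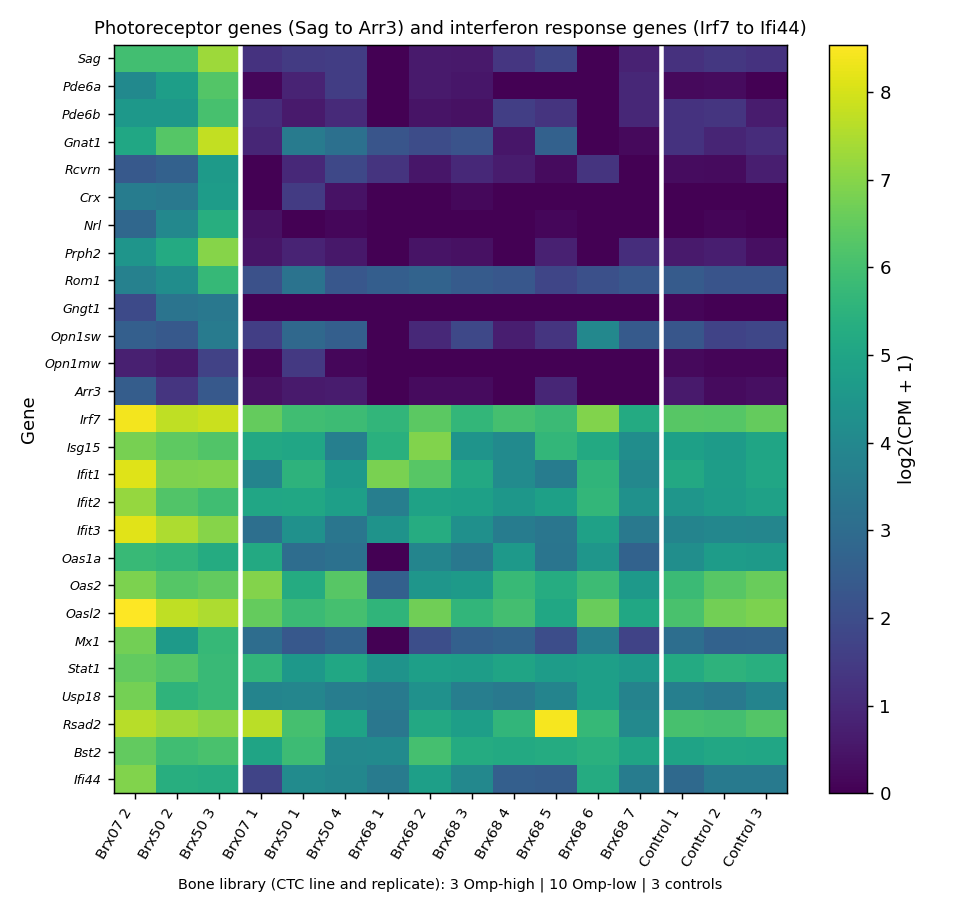
Level of 13 of the 14 photoreceptor genes (Sag to Arr3) and 14 interferon response genes (Irf7 to Ifi44) in the 16 bone libraries, as log2(CPM + 1) on a colour scale; white lines part the 3 Omp-high, 10 Omp-low and 3 control libraries. Sag is brightest in Brx50 replicate 3 at 155 CPM, and interferon genes such as Ifit3, at 125 to 282 CPM, are bright in the same 3 columns from a higher level in all other libraries.

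Other neural genes were less uniform. Of 10 brain neuron genes, 4 were higher without overlap, the synaptic genes Snap25, Syt1 and Slc17a7 and the tubulin regulator Stmn2, which is also on the immature neuron list. Syt1 read 87.4, 33.1 and 40.1 CPM against at most 8.57. Neurod6, of cortical neurons, was at most 0.196 CPM in the Omp-high class. Astrocyte, oligodendrocyte and pituitary lists had 0 of 8 members each separated, near the 3.79% higher over all filtered genes. The summed pituitary level was 1.08 CPM in Brx07 replicate 2, 165 in Brx50 replicate 2 and 80.7 in Brx50 replicate 3. It reached 705 CPM in the Omp-low class and 1.31 CPM in the controls.

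Lists of bone and marrow had scores that overlapped between the classes. Over all genes passing the filter, 3.79% were higher and 0.083% lower without overlap, so 0 members in a short list is near that share. The osteoblast (0 of 12 genes), osteoclast (0 of 10), cartilage (0 of 11), fibroblast (0 of 14), endothelial (0 of 10), macrophage (0 of 14), progenitor (0 of 10), erythroid (0 of 11), cell cycle (0 of 14) and immediate early (0 of 12) lists had overlapping scores. The endothelial score was 5.92 ± 0.54 (SD, n = 3) against 6.99 ± 0.91 (n = 10), with ranges of 5.33 to 6.38 and 4.87 to 7.58. Skeletal muscle (0 of 12) and tooth (0 of 7) genes overlapped too, as did the gland genes of the salivary and lacrimal list, with Pip and Lpo higher of 12. Of the 31 lists, 7 had scores higher in every Omp-high library than in any Omp-low library, and 24 overlapped.

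**Figure D4:**
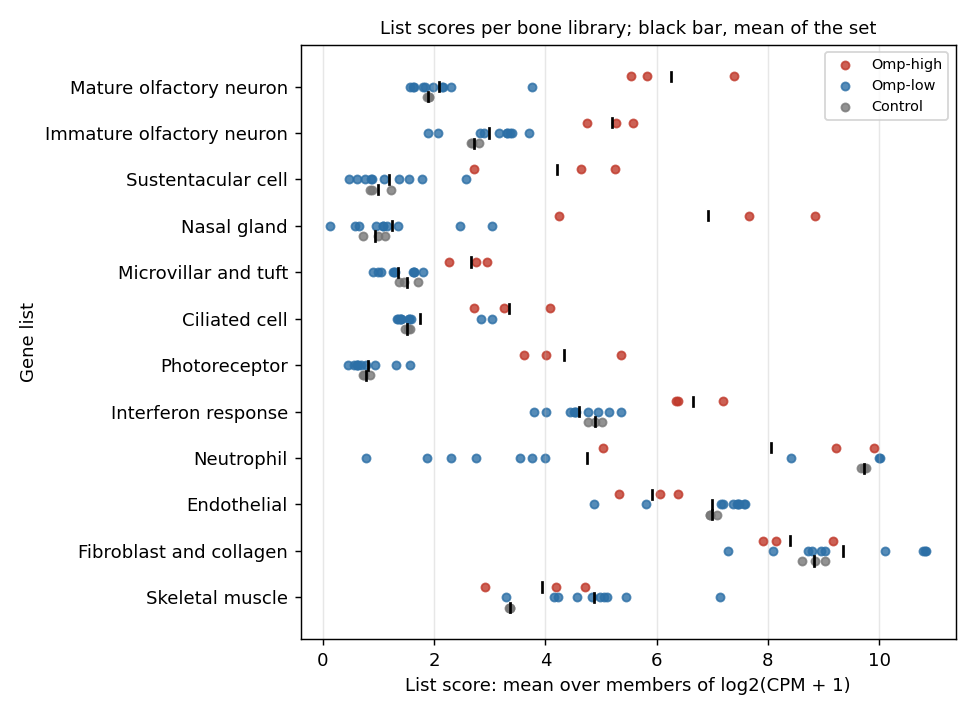
Score of 12 gene lists (mean over members of log2(CPM + 1)) in each bone library, coloured by class, with a black bar at the class mean. Olfactory neuron, sustentacular, nasal gland, microvillar, photoreceptor and interferon scores of the 3 Omp-high libraries lie above all Omp-low points, while the other lists, with neutrophil scores from 5.04 to 9.91 in the Omp-high class, overlap.

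The 3 Omp-high libraries differed in proportion. Brx07 replicate 2 had the highest value of 20 of the 21 mature olfactory neuron genes, 18 of 20 nasal gland genes and all 14 interferon genes. Brx50 replicate 3 had the highest value of 13 of 14 photoreceptor genes. Brx50 replicate 2 had the lowest value of all 20 nasal gland genes and of 11 of 13 sustentacular genes. The summed nasal gland level was 4.76 times the summed mature neuron level in Brx07 replicate 2, 1.98 times in Brx50 replicate 2 and 7.32 times in Brx50 replicate 3. The same ratio for photoreceptor genes was 0.0483, 0.273 and 0.722. Nasal gland and photoreceptor levels therefore did not keep a fixed ratio to the neurons.

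Marrow genes ran in a different order again. The summed level of 16 neutrophil genes was 2556 CPM in Brx07 replicate 2, 58145 in Brx50 replicate 2 and 28673 in Brx50 replicate 3, against 40.7 to 49470 in the Omp-low class. S100a9, a neutrophil protein, read 414, 17890 and 6728 CPM. Tooth enamel genes were high in Brx50 replicate 2 alone of the 3: Amelx, the enamel matrix protein amelogenin, read 10.6, 1366 and 9.21 CPM, and reached 868 CPM in the Omp-low class and 1255 CPM in the controls.

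**Figure D5:**
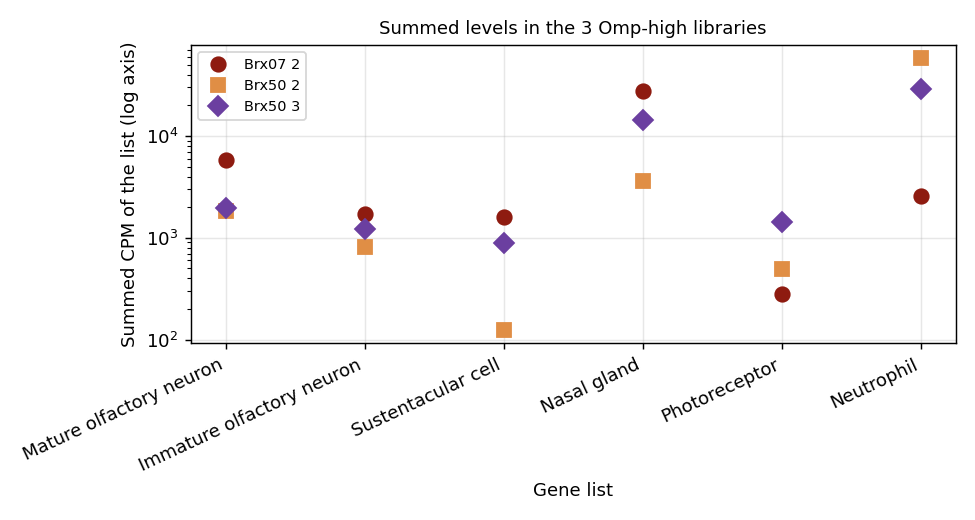
Summed CPM of 6 gene lists (log axis) in the 3 Omp-high libraries, 1 symbol per library. Brx07 replicate 2 is highest for neuron and gland lists and lowest for photoreceptor (280 CPM) and neutrophil (2556 CPM) lists, whereas Brx50 replicate 3 is highest for photoreceptor genes (1431 CPM).

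Outside the lists, the 15 genes with the largest difference among those separated are named here. Gfy, a Golgi protein of olfactory neurons that acts in receptor trafficking, read 467, 147 and 220 CPM against at most 19.6. Bpifa6, a BPI-fold family member, read 727, 144 and 1082 CPM against at most 80.4. The secretoglobins Scgb2b2 and Scgb1b2, overlapping genes on chromosome 7, read 155, 86.9 and 187 CPM and 131, 100.1 and 177 CPM, with 0 counts in every Omp-low and control library. Rbp3, the retinoid carrier of the retina, read 31.6, 76.5 and 235 CPM against at most 0.571, highest in Brx50 replicate 3. Scn9a, a voltage-gated sodium channel used by olfactory neurons, read 232, 77.7 and 78.5 CPM against at most 15.3. The others were Mucl2, Trim66, Gpx6, BC048679, Rd3, Aox2, Uncx, Cntn4 and Chga. Chga, a granule protein of neuroendocrine cells, read 283, 88.7 and 134 CPM, and reached 78.3 CPM in the Omp-low library Brx50 replicate 4, which had the highest pituitary list score of the bone libraries, at 3.18.

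Few genes were lower. Of the 18062 genes passing the filter, 15 had all Omp-high values below all Omp-low values, and 12 of them met the limits for naming. The number was 32 with TMM scaling, 30 with RLE scaling, up to 69 with 1 library left out (Brx07 replicate 2) and 253 without both Brx07 libraries. Atp2b4, a plasma membrane calcium pump, had the largest difference at -1.29 on the log2(CPM + 1) scale. It read 163, 112 and 145 CPM against 236 to 550 in the Omp-low class and 218 to 277 in the controls. Ets1, a transcription factor of lymphoid and endothelial cells, read 133, 143 and 172 CPM against 191 to 497, and Icam2, an adhesion molecule of endothelium, 10.9, 12.4 and 14.2 CPM against 14.6 to 30.1. The rest were Ripk3, St3gal1, Ctps, Tmod3, Odc1, Cdc42ep4, Sav1, Esyt2 and Cr1l, with differences from -0.91 to -0.38.

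The 2 Brx07 libraries share the label code 2.1, and their titles name the leg and the skull. Codes recur elsewhere, with no stated meaning: 84.2 on Brx50 replicate 3 (Omp-high), Brx68 replicate 6 (Omp-low) and a lung library of Brx50, and 83.2 on Brx50 replicate 2 and on a brain and a lung library of Brx50. Each site is 1 library, so no test was possible. In the leg library Cnga2, Obp1a and Fstl5 had 0 counts. Hox genes, which pattern the trunk and limbs and are little used in the head, numbered 15 at 1 CPM or more in the leg library and 2 in the skull library. The Omp-high Brx50 libraries had 3 each, and the other Omp-low libraries 2 to 7 except Brx68 replicate 5 with 22. Controls had 4 to 6. No Hox gene separated the classes among 39, beside 2.41% of all gene IDs higher and 0.0346% lower. The scores of 16 head patterning genes overlapped, at 2.07 to 4.12 in the Omp-high class, 0.42 to 3.76 in the Omp-low class and 2.36 to 2.68 in the controls. The score of Brx50 replicate 2, at 2.07, was below all 3 controls.

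By CTC line, Omp-high libraries were 2 of 4 in Brx50, 0 of 7 in Brx68 and 1 of 2 in Brx07, which is given without a test. Gene levels could be tested between the groups of the labels, which did not use Omp. In exposed bone against controls, the mature olfactory neuron genes had a median log2 fold change of 3.76, with 21 of 21 fitted higher, beside 0.08 for all 18278 genes tested. None passed edgeR's quasi-likelihood test, at adjusted p = 0.970 or more, with 7 below an unadjusted p of 0.05. The 7 genes were high in the same libraries, so they are not independent observations. By DESeq2, Rtp1 alone of the 21 passed (adjusted p = 9.45e-05). It had 0 counts in every control, and its fitted log2 fold change was 20.9. Over all genes, 0 passed by edgeR (458 below an unadjusted p of 0.05) and 18 by DESeq2. The 18 are 0.0415% of all 43346 gene IDs, which DESeq2 was given without the filter.

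Between the lines Brx68 and Brx50, the median log2 fold change was -3.10 for mature olfactory neuron genes and -6.09 for photoreceptor genes, lower in Brx68, beside -0.01 over 19052 genes. By edgeR, unadjusted p was below 0.05 for 9 of 21 and 13 of 14 genes. Members of a list were high in the same Brx50 libraries, so these counts of genes are not independent observations. After adjustment 0 of either list passed by edgeR, with the smallest adjusted p = 0.461 among photoreceptor genes. By DESeq2, 0 of the 21 mature olfactory neuron genes passed, and the photoreceptor genes are not given by that method. Over all genes 0 passed by edgeR (921 below an unadjusted p of 0.05) and 46 by DESeq2, 0.106% of all 43346 gene IDs. These label tests weigh all libraries of a group alike, and the olfactory values came from 3 of 13 exposed libraries.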

How the data were processed

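RNA was sequenced from GFP-negative cells of mouse bone, lung and brain. The authors deposited raw read counts per gene as 1 table of 43346 Ensembl IDs and 30 libraries, used unchanged. STAR 2.5.2b and HTSeq were used per the submitters' processing notes. These name human builds (hg19, GRCh37) and mouse builds (mm10, GRCm38.p5) and assign none of them a role. The notes given here state no annotation, strand setting or way of parting human from mouse reads, so overlapping or antisense genes cannot be told apart. GENCODE M21 (GRCm38) gave symbols to 42462 IDs, and the rest held 0.132% of counts.

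CPM used the unscaled column totals, and differences are of class means of log2(CPM + 1). The members and the 31 lists (376 of 381 genes in the table) were chosen with earlier results of these data known. Named by rule were up to 4 members per list with the largest difference and a mean of at least 10 CPM in 1 class, the most abundant member, up to 15 genes per direction outside the lists, and the 5 most abundant receptors. The other members were named for their role after their values were seen.

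Label groups were tested with edgeR 4.0.16 (quasi-likelihood F-test, TMM, filterByExpr, Benjamini-Hochberg, threshold 0.05) and DESeq2 1.42.0 in R 4.3.3. Each fit had its own shared spread estimate, over exposed and control bone or over the exposed lines Brx07, Brx50 and Brx68. On simulated data, edgeR recovered 73% of 16-fold and 38% of 4-fold changes among 18278 genes for exposed bone against control, with 2 calls on unchanged genes. For Brx68 against Brx50 it recovered 60% and 18% among 19052 genes, with 8 such calls. Recovery of a change carried by only some libraries of a group was not tested. The labels do not state whether replicates were separate mice, so p-values measure only the spread between libraries, possibly technical. Within groups, no pair of libraries agreed within sampling noise (smallest chi-square per degree of freedom 10.7, over 31 pairs). Intervals from counts cover counting error only. Alternatives were the Omp threshold, TMM or RLE scaling, the pseudocount, the filter, DESeq2 and leaving out each library. Values of 2 list members are not reported here. A planned test of CTC line against Omp class is not given, since the class was chosen from Omp levels.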

Additional observations from a re-analysis of the deposited data

Results flagged for a closer look

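Within the Omp-low class, Brx68 replicate 3 lay far from the other 9 libraries in its mature olfactory neuron score, at 3.76. The gap to its nearest neighbour was 0.665 of the class's whole range. Scores of 31 lists were examined this way, and chance flags about 1 in 20 groups.

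A signal also appeared in a tissue that the comparison did not use. The library of Brx50 brain replicate 2 had a mature olfactory neuron score of 5.09, above the higher brain control at 3.71. It held 57 odorant receptor genes, of which 37 had at least 10 counts, and its leading receptor was Olfr568 with 5.23% of the receptor level. Its sustentacular score was 3.60, above both brain controls (0.90 and 0.91) and within the range of the Omp-high bone libraries (2.72 to 5.26). Its nasal gland score was 0.79 and its photoreceptor score 0.89, below every Omp-high bone library.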

How the results depend on the processing

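Score differences of the mature neuron, nasal gland, photoreceptor and interferon lists stayed positive under 18 alternative settings. Differences near 0, such as 0.15 for tooth and 0.07 for erythroid genes, did not all keep their sign with a library left out. The cause of the changes below was not tested. At an Omp threshold of 10 CPM, which adds Brx68 replicate 3 to the Omp-high class (4 libraries), genes without overlap fell to 217 higher and 0 lower. Nasal gland members fell to 7, and photoreceptor and interferon members both to 0, with score differences of 2.63 and 1.49 for these last lists. With TMM and RLE scaling, which lowered the median difference of all genes from 0.16 to 0.08, lower genes numbered 32 and 30. With a pseudocount of 0.1 CPM, score differences were 5.48 for mature neurons, 7.92 for nasal glands and 5.17 for photoreceptors. Without the low count filter, 1045 genes were higher.

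Leaving out each library in turn, higher genes ranged from 699 to 1366 (the latter without Brx50 replicate 2). Lower genes ranged from 15 to 69: 69 without Brx07 replicate 2, 46 without Brx07 replicate 1 or Brx50 replicate 2, 38 without Brx50 replicate 3 and 32 without Brx68 replicate 4. They numbered 253 without both Brx07 libraries. The score difference ranged from 4.70 to 7.00 for nasal glands (highest without Brx50 replicate 2), 3.01 to 3.88 for photoreceptors (lowest without Brx50 replicate 3), 3.60 to 4.53 for mature neurons and 1.76 to 2.19 for interferon genes. For exposed bone against control, 18 genes passed by DESeq2 and 0 to 2 by edgeR with a library left out, 2 without Brx68 replicate 2. For Brx68 against Brx50, 46 passed by DESeq2 and 0 by edgeR with any library left out.

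At 1000 CPM of Omp, and among Brx68 libraries alone, no library was Omp-high, so these alternatives gave no value. No paired analysis was possible because replicate numbers stand in the control labels alone, and of the codes in the exposed titles, whose meaning is not given, Brx50 and Brx68 bone share only 84.2. Depth limits single receptors, most of which rest on few counts.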
